A study of Mus musculus with 20 samples.

Results

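Editing that depends on the interferon-inducible form of the RNA-editing enzyme ADAR1 was examined in mouse embryonic fibroblasts (MEFs) that lack STAT2, a relay of the type I interferon signal, by setting a STAT2-null line against a p150 knockout line. Each line was sequenced untreated and after interferon, with 2 libraries per condition, so that 4 libraries of each line entered the comparison. The members were all sites read at least 50 times in each of these 8 libraries, which held for 5465 of the 48425 sites listed, spread over 250 amplified loci. The level of a site is the number of edited reads divided by the coverage, in percent, and differences between lines are given in percentage points.

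The study amplified 557 loci by RT-PCR and sequenced the pooled products. The 20 libraries used here come from 5 MEF lines: a wild-type line (the label speaks of ADAR1 alone), STAT2-null, p150 knockout, ADAR2-null and ADAR1-null, all of them with and without interferon. The series design text counts 6 lines, and the remaining one was not analysed here. The interferon's type, dose and duration of use were not stated. Each genotype is a single line, so genotype and line cannot be told apart, and nothing in the labels says that the 2 libraries of a condition came from separate cultures. The p-values therefore measure only how far these libraries vary, which may be technical. The loss of p150 or of STAT2 could not be checked, because no site in Adar or Stat2 was among the members, nor any site in the 8 fibroblast marker genes looked up.

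ADARs deaminate adenosines of double-stranded RNA to inosine, which is read as guanosine by reverse transcriptase. The Adar gene gives a constitutive, mainly nuclear p110 protein and a longer, largely cytoplasmic p150 protein, which carries a Z-alpha domain and whose promoter is interferon-inducible; Adarb1 encodes ADAR2. p150 edits duplexes, often formed by inverted repeats in 3′ UTRs, that the cytoplasmic sensor MDA5 would otherwise bind. STAT2 is the subunit that brings the transactivating domain to ISGF3, the complex that turns on interferon-stimulated genes.

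Total coverage of the 8 libraries ran from 4389326 to 5453157 reads summed over sites. The first interferon-treated p150 knockout library stood apart. It had the lowest coverage and reached 50 reads at 5819 sites, against 7268 to 8814 in the other 7 libraries; without it 6966 sites would have been members. It was the highest of its line by at least 5 points at 28 of the sites tested below, against 6 for the other interferon-treated library of that line and 1 and 3 for the untreated ones. The main counts are given with and without it in the fit, at sites still chosen with it. PCR reads carry no molecular identifiers here, so detection limits cover counting error only. The intervals of differences come from the spread of the libraries' levels within treatment.

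Mean editing was higher in every STAT2-null library than in every p150 knockout library. Averaged over all 5465 members, the level was 0.351% and 0.364% in the untreated p150 knockout libraries and 0.446% and 0.415% in the treated ones. In the STAT2-null line it was 0.688% and 0.684% untreated and 0.694% and 0.741% after interferon. The lines did not overlap: the means were 0.702% ± 0.0265 (SD, n = 4) and 0.394% ± 0.0446 (SD, n = 4), 0.308 points apart (SE 0.0146), or 1.78 times as high in STAT2-null cells. An exact two-sided permutation test over the 8 libraries gave p = 0.0286, the smallest value this design allows.

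The members were then split by their mean level over the 8 libraries, a split that a high level in either line alone can pass. At 323 members no edited read was seen in any of the 8 libraries, and 5089 had a mean level below 1% over the 8 libraries. Over these 5089 sites the 2 lines had means of 0.291% ± 0.0161 and 0.287% ± 0.0293 (SD, n = 4 each). The other 376 sites, in 126 loci, averaged 6.26% ± 0.475 in STAT2-null and 1.84% ± 0.326 in p150 knockout cells. At least 1% was reached at 342 members in STAT2-null cells alone, at 108 in p150 knockout cells alone and at 133 in both. Levels of at least 10% were reached at 61 members in STAT2-null cells and at 6 in p150 knockout cells, with 3 in both. Near the coverage threshold, the 84 sites whose least-covered library had 50 to 54 reads averaged 0.224% in STAT2-null and 0.211% in p150 knockout cells, and the 86 sites just below it, with 45 to 49 reads, averaged 0.396% and 0.130%.

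**Figure D1:**
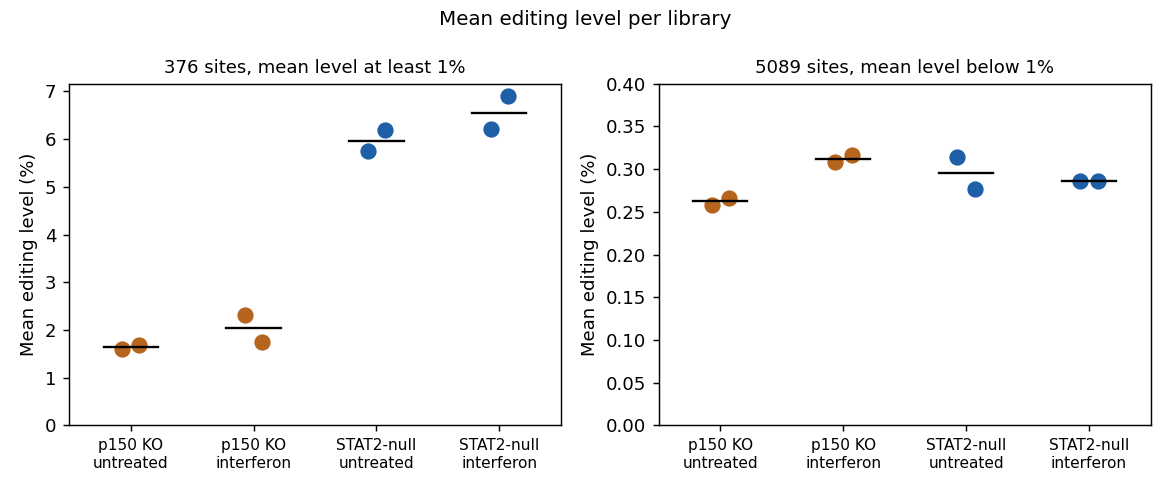
Mean editing level (%) of each library, for the 376 sites whose mean over the 8 libraries is at least 1% (left) and the 5089 sites below it (right); points are libraries and bars the mean of the 2 libraries of a condition. On the left every STAT2-null library lies above every p150 knockout library, and on the right the lines overlap around 0.29%.

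The 376 sites were tested with edgeR's quasi-likelihood test on edited and unedited read counts, with treatment as a block and Benjamini-Hochberg adjustment over all 376. At an adjusted p under 0.05, 209 sites (55.6%) differed between the lines. Of these, 205 (54.5%), in 75 loci, were higher in STAT2-null cells and 4 (1.06%) were lower. Because the 1% minimum was set on the compared libraries, the share called depends on it: 196 of 1011 sites (19.4%) were called when sites were chosen on the wild-type libraries, an alternative added after seeing the data, and 188 of 5142 (3.66%) with no minimum level. The median difference was 2.50 points over all sites tested and 4.13 points over the 205 higher sites (interquartile range 2.56 to 9.49, range 1.13 to 61.6). At 198 sites (52.7%) the 4 libraries of one line did not overlap the 4 of the other, and 190 of the 205 higher sites were among them. With the library that stood apart left out of the fit, 209 of the same 376 sites were called, 206 higher and 3 lower. Of these, 192 and 3 were shared with the calls above. The 376 sites were still chosen with that library, so its effect on the choice was not tested.

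The p150 knockout was near the lower end of the scale at most of the 205 higher sites, which were called for a lower level there. Its median level was 0.505% over them and 0.818% over all sites tested. Of the 205, 141 had a mean level under 1% in p150 knockout cells, 53 had 1 to 5%, and 11 had 5% or more. The difference was at least 5 points at 93 sites, at least 10 points at 50, at least 20 points at 18 and at least 30 points at 5. Of the 167 sites that were not called, 115 were higher in the STAT2-null mean, with a median difference of 0.967 points, and 95 had a 95% interval of the difference within 5 points of 0. A level averages over all cells of a culture, so fewer edited cells and less editing per cell cannot be told apart.

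**Figure D2:**
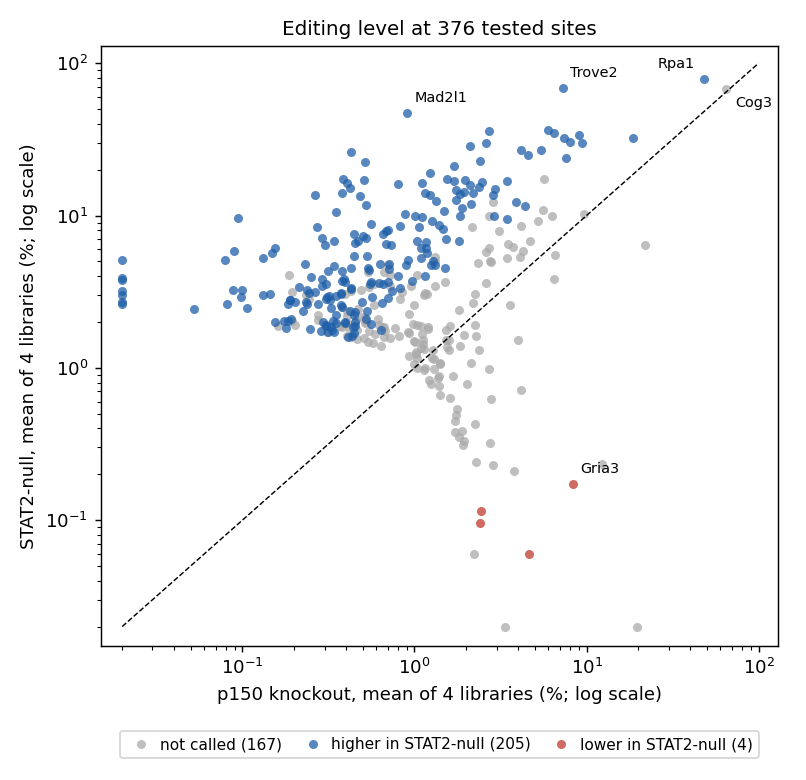
Mean editing level (%) of the 376 tested sites in p150 knockout (horizontal, log scale) and STAT2-null cells (vertical, log scale), with means under 0.02% drawn at 0.02% and the dashed line marking equal levels. The 205 higher sites lie above the line, most at p150 knockout means under 1%; Cog3 lies on it and Gria3 below it.

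The 20 genes with the greatest difference were taken among called sites whose lines did not overlap, 1 site per gene. Of these sites 16 (80%) lay in 3′ UTRs, close to the 79.5% of all tested sites there, and the rest were 2 protein-changing, 1 intronic and 1 noncoding RNA site. Differences over these 20 ran from 15.2 to 61.6 points (SE 0.861 to 5.43), and edgeR's Benjamini-Hochberg adjusted p from 6.64e-05 to 0.0151. Positions are on mm9 as the deposited files give them.

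Trove2, which encodes the Ro60 protein that binds misfolded small RNAs, had the widest gap of the 376 sites, at chr1:145602508 in its 3′ UTR. Its level was 9.97% and 12.7% in untreated and 0% and 6.37% in interferon-treated p150 knockout libraries. In STAT2-null libraries it was 59.6% and 65.5% untreated and 73.5% and 76.7% treated. No STAT2-null library came near the p150 knockout range, and the means differed by 61.6 points (SE 2.40; edgeR adjusted p = 0.0024).

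Mad2l1, a component of the mitotic spindle checkpoint, had 26 tested sites over 776 bases of its 3′ UTR on chromosome 6, and 25 of them were higher in STAT2-null cells. This was the locus with the most higher sites. At chr6:66490075 the 4 p150 knockout libraries read 1.86% and 1.04% untreated and 0.494% and 0.22% treated, and the STAT2-null libraries 45.5% and 45.5% untreated and 47.0% and 50.3% treated. The site was well edited in every STAT2-null library and barely in any p150 knockout library (difference 46.2 points, SE 0.861; edgeR adjusted p = 6.64e-05). The neighbouring sites were far from uniform: means in STAT2-null cells ran from 1.59% at 66490201 to 29.7% at 66490120, and adjacent adenosines at 66490276 and 66490277 had 3.08% and 17.1%. The site that was not called, at 66490207, had 6.53% ± 0.592 against 3.48% ± 2.07 (SD, n = 4 each; edgeR adjusted p = 0.0735). Sites of a locus are read from the same amplified transcripts and are not independent of each other.

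**Figure D3:**
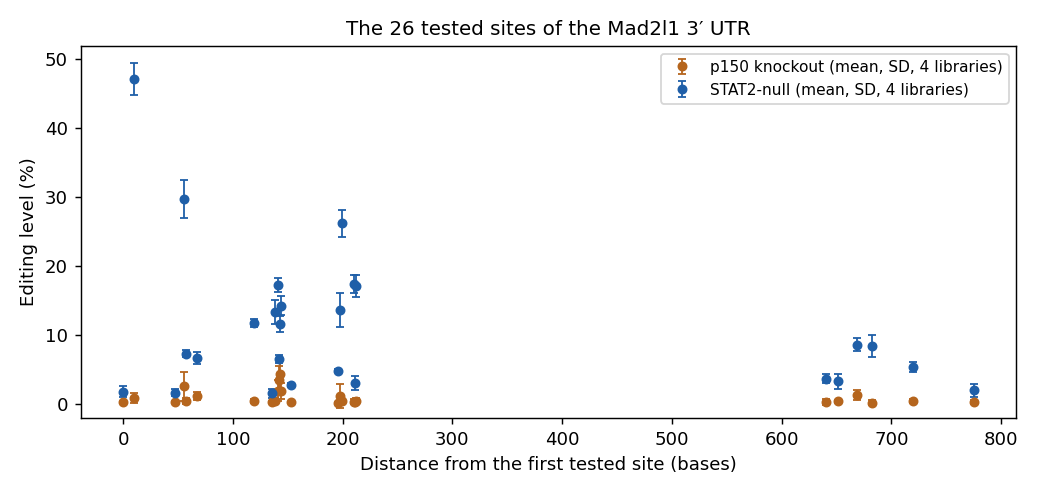
Editing level (%) of the 26 tested sites of the Mad2l1 3′ UTR against distance in bases from the first of them; points are means of 4 libraries and bars SDs. The STAT2-null points spread between 1.59% and 47.1%, while every p150 knockout mean stays under 5%.

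A noncoding transcript, uc012aji.1 on chromosome 17, had 13 tested sites, of which 11 were higher, and these 11 lay within 55 bases. The top one, at chr17:6122608, had 2.80% and 3.09% untreated and 0.893% and 4.12% treated in p150 knockout cells, against 34.2% and 33.4% untreated and 39.4% and 36% treated in STAT2-null cells (difference 33.0 points, SE 1.20; edgeR adjusted p = 0.000186). At 6122636, in the same stretch, the knockout kept a mean of 18.5% ± 7.96 against 32.3% ± 1.61 (SD, n = 4 each; adjusted p = 0.047 in edgeR). Residual editing in the p150 knockout thus varied widely between nearby adenosines of a single transcript.

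Further 3′ UTR sites had the same order of lines. Malt1, a signalling protease of lymphocyte receptors, had 5.96% ± 4.11 in p150 knockout and 36.6% ± 3.63 in STAT2-null cells at chr18:65636731. Ovca2, a serine hydrolase, had 6.49% ± 2.68 and 34.7% ± 2.82 at chr11:74989846, and 7 of its 9 tested sites were higher. Exoc8, an exocyst subunit, had 2.11% ± 2.23 and 28.5% ± 2.89 at chr8:127418084 (SD, n = 4 for each of these means). Psma3, a proteasome subunit, Pfas, a purine synthesis enzyme, and Iws1, a transcription elongation factor, had differences of 22.6, 16.0 and 19.4 points. Among the remaining names were Jmjd4 (15.4), Ankrd28 (15.2), 9930104L06Rik (16.3) and uc009qeo.1 (20.5 points), and an intronic site of S100pbp (22.7 points).

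**Figure D4:**
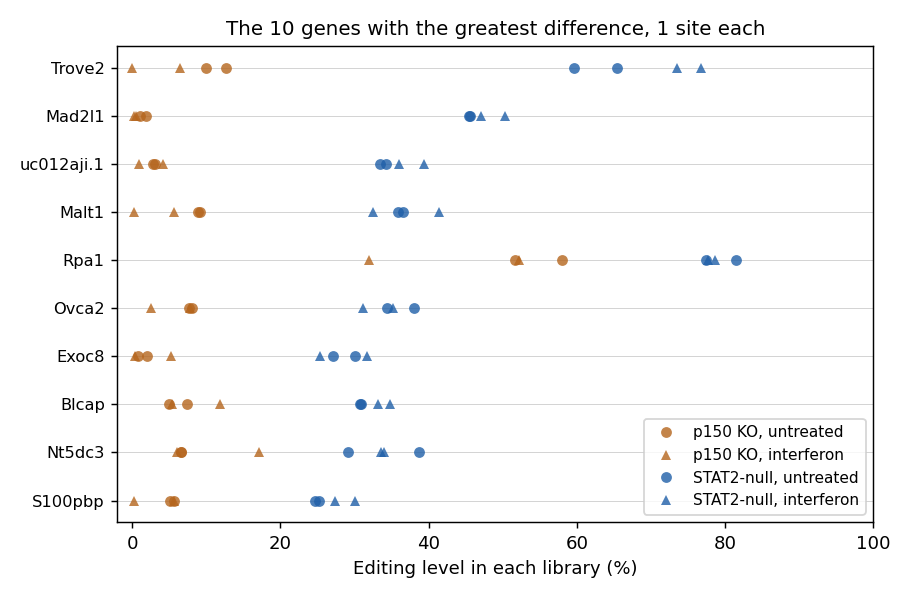
Editing level (%) in each of the 8 libraries at the top site of the 10 genes with the greatest difference; circles are untreated and triangles interferon-treated libraries. The genes were taken from sites without overlap between lines; among the 10, only Rpa1 has p150 knockout libraries above 20%.

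Rpa1, a subunit of the single-stranded DNA-binding replication protein A, kept the highest level of these genes without p150. At chr11:75114517 in its 3′ UTR the p150 knockout libraries had 58.0% and 51.6% untreated and 31.9% and 52.2% treated, and the STAT2-null libraries 77.4% and 81.5% untreated and 78.7% and 77.7% treated. The lines did not overlap (difference 30.4 points, SE 5.43; edgeR adjusted p = 0.0134). The same adenosine was at 45.3% and 36.8% in untreated and treated ADAR1-null cells and at 40.5% and 95.2% in ADAR2-null cells. Of the 10 tested Rpa1 sites, 4 were higher in STAT2-null cells.

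The long 3′ UTR duplex genes tested were Cds2, Mad2l1, Mmgt1, Nt5dc3 and Rpa1, and 34 of their 41 sites (82.9%) were higher and none lower, beside 54.5% of all sites tested. Their median difference was 4.61 points against 2.50 over all sites tested, and 25 of the 34 higher sites were those of Mad2l1; without it 9 of 15 were higher. Mmgt1, a subunit of the complex that inserts membrane proteins in the endoplasmic reticulum, had 0.350% ± 0.198 in p150 knockout and 10.5% ± 1.85 in STAT2-null cells at chrX:53840820 (SD, n = 4 each). Cds2, which makes CDP-diacylglycerol for phosphoinositide synthesis, had no edited read among 1717 in p150 knockout cells at chr2:132135369, which allows up to 0.175%, and 2.99% ± 1.23 (SD, n = 4) in STAT2-null cells. Nt5dc3 had 9.07% ± 5.35 and 33.8% ± 3.95 (SD, n = 4 each) at chr10:86300002. All 3 of its tested sites were higher, and its highest knockout level, 17.1%, was in the library that stood apart.

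The DNA repair and cell cycle genes tested were Mad2l1, Mdc1, Mlh3 and Rpa1, with 37 of 49 sites higher and none lower, beside 54.5% of all sites tested. Without Mad2l1, 12 of 23 were higher. Mad2l1 and Rpa1 are in this list as well as the last one. Mdc1, a scaffold that binds phosphorylated H2AX at DNA breaks, had 7 of 11 sites higher, led by chr17:35994679 with 9.40% ± 2.83 against 30.1% ± 2.19. Mlh3, a mismatch repair protein that acts in meiosis, had 0.0879% ± 0.176 against 3.24% ± 1.37 at chr12:86576054 (SD, n = 4 for each mean of both genes).

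In the nucleolar and nuclear pore list 11 of 19 sites (57.9%) were higher, close to the 54.5% over all sites tested, beside which the counts of the lists below stand too. Gnl3l, a nucleolar GTPase, had 6 of 6 higher; at chrX:147420066 its level was 0.0941% ± 0.027 in p150 knockout and 9.59% ± 2.09 in STAT2-null cells (SD, n = 4 each). Nup155, a scaffold nucleoporin, had 0.680% ± 0.182 and 7.97% ± 2.13 at chr15:8109489. The RNA binding list had 4 of 15 higher. The lysosomal list had 6 of 10, all 6 in Gla, the alpha-galactosidase deficient in Fabry disease, whose site at chrX:131123181 had 0.701% ± 0.524 against 8.07% ± 2.43 (SD, n = 4 each). The mitochondrial and metabolic list had 5 of 5 (Cds2, Coq3 and Nt5dc3), the secretory list 3 of 5 and the cytoskeletal list 2 of 4. Rhoa, a small GTPase of actin contractility, had 0.154% ± 0.147 and 2.0% ± 0.684 (SD, n = 4 each).

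Of the RNA sensing and interferon genes, Ifnar1, a chain of the type I interferon receptor, was the only one with tested sites, and 1 of its 4 was higher. That intronic site at chr16:91490832 had 0% in 3 p150 knockout libraries and 0.581% in the second treated one, and 0% and 2.84% untreated and 3.66% and 5.73% treated in STAT2-null libraries (edgeR adjusted p = 0.0263). The lines overlapped there.

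By annotation, 170 of 299 tested 3′ UTR sites (56.9%) were higher in STAT2-null cells, beside 54.5% of all sites tested. The counts were 13 of 17 in noncoding RNAs (76.5%), 12 of 33 in introns (36.4%) and 3 of 8 intergenic sites. Among the noncoding RNAs, uc012aji.1 alone held 13 of the tested and 11 of the higher sites. Both tested 5′ UTR sites were not called. Among 17 coding sites, 7 were higher, in 4 genes, 1 was lower and 9 were not called. By locus, 39 had at least 2 higher sites and 36 had 1. The 6 loci with the most held 62 of the 205 (30.2%), and 86 of the 376 tested sites (22.9%); without Mad2l1, 37 of their 60 tested sites were higher. In 50 tested loci no site was called.

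Blcap, a bladder cancer-associated protein whose start region is edited in many tissues, had all 3 of its tested sites higher. The Tyr-to-Cys site at chr2:157383885 had 4.95% and 7.37% untreated and 11.8% and 5.39% treated in p150 knockout libraries, against 30.9% and 30.8% untreated and 34.7% and 33.2% treated in STAT2-null ones. The lines were well apart (difference 25 points, SE 1.76; edgeR adjusted p = 0.000772). The Gln-to-Arg site had 2.20% ± 1.86 against 14.0% ± 2.07 and the Lys-to-Arg site 0.919% ± 0.841 against 5.10% ± 1.23 (SD, n = 4 each). A Thr-to-Ala site in uc008wxi.1, at chr5:31475853, had 2.41% ± 1.43 against 22.8% ± 6.4 (SD, n = 4 each; edgeR adjusted p = 0.00184).

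Of 11 tested sites of the ADAR2 type, 6 (54.5%) were higher, the same share as over all sites tested, 2 were lower and 3 were not called. The Ile-to-Val site of Cog3, a Golgi tethering factor, had 67.6% and 62.9% untreated and 67.4% and 60.2% treated in p150 knockout libraries, and 72.7% and 66.1% untreated and 59.1% and 74.0% treated in STAT2-null ones. The lines overlapped, and the difference was 3.48 points with a 95% interval from -9.26 to 16.2 (edgeR adjusted p = 0.702). In ADAR2-null cells the same site was at 7.93% and 12.8%. The adjoining synonymous site was not called either, at 4.99% ± 1.65 against 2.77% ± 1.79 (edgeR adjusted p = 0.22). A weakly edited Lys-to-Arg site nearby was higher in STAT2-null cells, 1.86% ± 0.542 against 0.441% ± 0.111 (SD, n = 4 each).

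Adarb1, the gene of ADAR2, had 4 tested intronic sites on chromosome 10, and all 4 were higher in STAT2-null cells. At chr10:76786805 the p150 knockout had 6.86% and 6.63% untreated and 0.0523% and 0.229% treated, while the STAT2-null line had 6.78% and 10.6% untreated and 10.3% and 10.3% treated. The treated libraries were far apart and the untreated ones overlapped (difference over all 8, 6.04 points, SE 0.965; edgeR adjusted p = 0.038, which passed 0.05 when any of 4 libraries was left out). At 76786829 the lines did not overlap, with 0.237% ± 0.128 against 3.26% ± 1.13 (SD, n = 4 each; edgeR adjusted p = 0.000531).

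The 4 sites that were lower in STAT2-null cells lay in 3 genes. The Arg-to-Gly site of Gria3, a subunit of AMPA-type glutamate receptors, at chrX:39007429, had 7.97% and 7.77% untreated and 15.8% and 1.70% treated in p150 knockout libraries. In STAT2-null libraries it had no edited read in 3 and 0.690% in the first treated one, 3 edited of 1706 reads in all. The lines did not overlap (difference -8.14 points, SE 3.53, 95% interval -18.0 to 1.67; edgeR adjusted p = 0.0048). The difference was -4.61 points without the first treated p150 knockout library and -11.7 without the second, and the call was lost in the quasi-binomial model (adjusted p = 0.0813) and in the treated libraries alone (adjusted p = 0.118). An intronic Gria3 site, at 39007465, had 2.43% ± 1.79 against 0.115% ± 0.133 (SD, n = 4 each; edgeR adjusted p = 0.0229), with overlapping lines. Its difference of -2.32 points became -1.31 without the second treated p150 knockout library, and the call was lost without the first untreated p150 knockout, the first untreated STAT2-null or the first treated STAT2-null library. Without the second treated p150 knockout library 10 sites were called lower, and 2 without the first untreated p150 knockout library or either treated STAT2-null one. The other 2 of the 4, in Dnajc1 and Fbxl17, were each high in a single treated p150 knockout library, at 17.7% in the first and 7.32% in the second. Both loci also held 6 higher sites.

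Within each treatment the order of lines was the same. Without interferon, 109 of 376 sites (29.0%) differed, 108 of them (28.7% of those tested) higher in STAT2-null cells; with interferon 151 (40.2%) differed, 148 of them (39.4%) higher. The 2 sets, from 1 fit with a shared estimate of spread, had 86 sites in common, 79.6% of the untreated and 58.1% of the treated ones. With each treatment fitted alone the order of the counts turned, to 144 higher untreated and 87 treated, with 69 in common, 47.9% and 79.3% of each set. The line difference itself was found to depend on treatment at 1 site (0.266%), the Adarb1 site at 76786805; 28 sites had an unadjusted p under 0.05 in edgeR, and limma called 0. Leaving out the first or second treated p150 knockout library gave 13 and 18 sites with such a dependence, and leaving out any other gave 0. The untreated count rested on every library: it was 164 without either treated p150 knockout library and 23 to 46 without any of the others. The treated count fell to 50 and 41 without the first or second treated STAT2-null library.

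Changes with interferon within each line rest on 2 libraries against 2, and few calls do not show that levels stayed the same. In STAT2-null cells edgeR called 0 of 376 and limma 0, 3 sites had an unadjusted p under 0.05 in edgeR, and the mean over all members was 0.0316 points above untreated. In p150 knockout cells edgeR called 5 (1.33%), all lower after interferon, limma called 0, and in edgeR 41 had an unadjusted p under 0.05. The mean over all members was 0.0733 points above untreated, opposite in direction to these calls. The 5 were the same Adarb1 site and 4 sites of Mad2l1, for example 66490206, with 3.41% and 3.15% untreated and 0.707% and 0.640% treated. Over both lines together, leaving out 1 library at a time moved the count of 5 between 0 and 41. It was 16 (4 higher after interferon, 12 lower) and 41 (16 higher, 25 lower) without the first or second treated p150 knockout library, 0 or 4 without an untreated one, and 0 or 1 without a STAT2-null library.

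Over the 4201 sites covered in all 20 libraries, the STAT2-null means were 0.738% to 0.795%. They lay below both untreated wild-type ones, 0.864% and 0.890%, and above all 4 of p150 knockout cells, 0.369% to 0.456%. Untreated ADAR2-null libraries had 0.509% and 0.434%, the second within the p150 knockout range, and ADAR1-null libraries had 0.238% to 0.309%. After interferon, wild-type libraries had 2.86% and 3.09% and ADAR2-null ones 2.26% and 2.45%. The higher sites were chosen for a STAT2-null level above the p150 knockout one, which can raise the first and lower the second there. The other lines were not used in the choice, but their levels were not free of it. The untreated wild-type median was 5.0% at 182 higher sites and 1.76% at 120 not called, each covered in all 20 libraries. At the 182 higher sites covered in all 20 libraries, the median level was 0.260% untreated and 0.271% treated in ADAR1-null cells and 0.555% and 0.441% in p150 knockout cells. In STAT2-null cells it was 4.81% and 5.57%, and in wild-type cells 5.0% untreated and 22% after interferon. ADAR2-null cells had 1.84% and 19.7%. The STAT2-null and untreated wild-type levels were not tested against each other here.

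**Figure D5:**
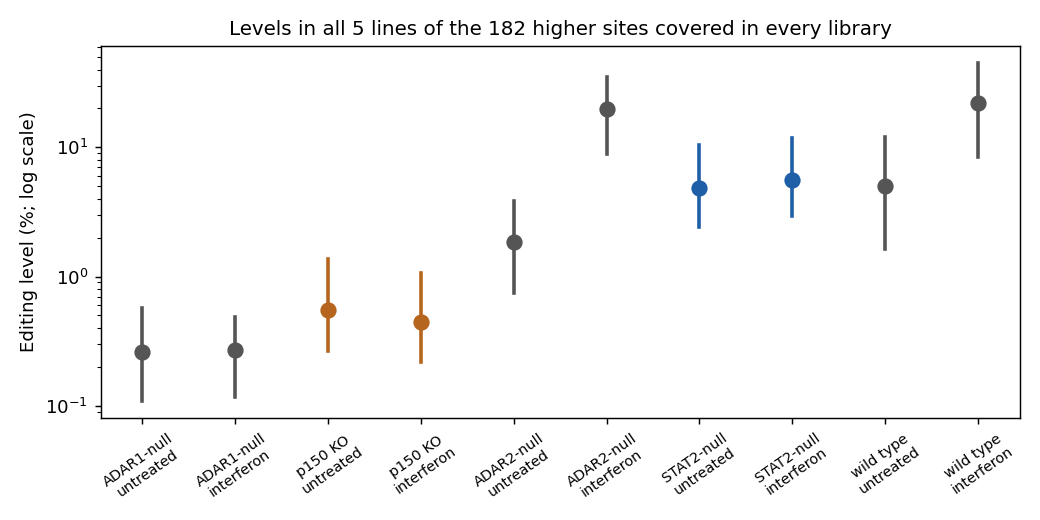
Editing level (%; log scale) of the 182 higher sites covered in all 20 libraries, in the 10 groups; points are medians over sites and bars interquartile ranges of group means. The STAT2-null groups, on whose high level the sites were chosen, are at 4.81% and 5.57%, untreated wild type is at 5.0%, and all lie under the interferon-treated wild-type and ADAR2-null groups at 22% and 19.7%.

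Single genes, given as examples, differed in how the STAT2-null level stood to the treated wild-type one. At the Mmgt1 site the wild-type mean went from 14.6% untreated to 92.1% treated, with STAT2-null cells at 10.5%. At the Gnl3l site it went from 9.68% to 65.5%, with STAT2-null cells at 9.59%, and at the Rhoa site from 1.12% to 67.0%, with STAT2-null cells at 2.0%. Other sites were already high in STAT2-null cells: Trove2 had 68.8%, with 63.0% and 80.1% in wild type, and the Blcap Tyr-to-Cys site 32.4%, with 14.8% and 26.1%. For uc012aji.1 the STAT2-null mean of 35.8% was above the wild-type means of 14.2% and 23.0%. At these examples the STAT2-null level thus lay anywhere from far below the treated wild-type level to above it.

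In wild-type cells both treated libraries lay above both untreated ones at 148 of 203 higher sites covered there (72.9%), against 63.3% of all 368 tested sites covered and 84 of 161 (52.2%) sites not called. In ADAR2-null cells this held for 181 of 205 (88.3%), against 71.8% of all 376 tested sites and 89 of 167 (53.3%) not called. The median change after interferon in wild type was 12.9 points at the higher sites and 2.53 points at those not called. In ADAR2-null cells it was 15.8 and 1.94 points. The 2 classes also differed in median STAT2-null level, 4.80% against 1.86%, and in median reads of the least-covered library, 746 against 247. They were not matched for either, so a link between the line call and the response was not tested. By edgeR's test in wild type, 109 of 1223 sites (8.91%) rose with interferon; of the 196 higher sites tested there 28 rose, and of 129 not called 2 rose. That test rests on 2 libraries a group, and leaving out any of the 4 left 0 calls.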

How the data were processed

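Reads were aligned to mm9 with BWA and handled with SAMtools, per the submitters' processing notes; their versions were not stated. The PCR products of a sample were pooled and barcoded in 15 cycles, per the labels' protocols. The authors deposited, per site and library, the coverage and edited reads as counts and their quotient as a fraction; levels were recomputed from the counts. Members had at least 50 reads in all 8 libraries, and sites with a mean level of at least 1% were tested. edgeR 4.0.16 (R 4.3.3) fitted edited and unedited counts with line and treatment as terms; limma 3.58.1 on log2 odds with 0.5 added to both counts was an alternative. Benjamini-Hochberg adjustment ran over all sites tested, at 0.05. SEs and 95% intervals of differences are from the libraries' levels, within treatment. The fit was tested on simulated counts. The members, the gene lists and the rule for named sites (greatest difference, 1 site per gene, among called sites without overlap; coding or called sites of the ADAR target lists; the 6 genes with most called sites; genes called both ways; sites called for treatment) were chosen with earlier results of these data known; further sites were added after their values were seen. Some sites that met the rule are counted but not reported by name. Whether positions count from 0 or 1 is not stated. Whether same-numbered libraries pair was checked: deviations correlated at 0.055 untreated and 0.047 treated, so the numbers were not used as pairs.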

Additional observations from a re-analysis of the deposited data

Results flagged for a closer look

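Among the named sites and the library means, 10 of the 78 groups of 4 libraries tested held a library far from the other 3. The rule was a gap over range above Dixon's critical value of 0.829, where chance flags about 1 in 20 groups. All 10 were at named sites. The groups mixed treated and untreated libraries and held linked sites, so that rate is only a rough guide. In p150 knockout cells the first treated library was the one apart at 5 sites: it was high at Nt5dc3 (17.1%) and at Adarb1 76786833 (0.678%), and low at Ovca2 (2.49%), S100pbp (0.202%) and uc009qeo.1 (0.278%). The second untreated p150 knockout library was high at Pfas (1.63%). In STAT2-null cells the first untreated library was low at Adarb1 76786805 (6.78%) and the second untreated one low at Ankrd28 (12.2%). The first treated STAT2-null library was high at Gria3 39007429 (0.690%) and the second treated one at Cog3 76119510 (2.67%).

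At Adarb1 76786805 the response to interferon differed between the lines by 8.17 points (STAT2-null minus p150 knockout; line-by-treatment interaction in edgeR, adjusted p = 0.042).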

How the results depend on the processing

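The 209 calls became 64 of the 82 sites with a mean of at least 5%, where fewer sites were tested, and 88 in the treated libraries alone, where fewer libraries were used. Other alternatives gave 146 (untreated alone) to 226 (coverage minimum 20), and leaving out 1 library 174 to 209. Lower calls (4) were 8 with no minimum level, 0 at 5%, 0 in the quasi-binomial fit, 2 and 1 in untreated and treated libraries alone, 2 at sites chosen on the wild-type libraries (added after seeing the data) and 2 to 10 with a library left out. The untreated count (109) was 64 with no minimum level, 48 at 5% and 23 to 164 with a library left out; the treated count (151) was 57 at 5% and 41 to 186. The interaction count (1) was 7 at 5%, 0 by limma, 0 in the 20-library fit and 0 to 18; the treatment count over both lines (5) was 10 at 5%, 0 by limma and 0 to 41. The wild-type count (109) was 254 with no minimum level, 369 by limma and 0 with any library left out. The cause was not tested beyond the sites and libraries named. The replicate block gave 214 calls, 208 higher and 6 lower; the numbers share no more than a number. The mean difference kept its sign, from 0.216 to 4.42 points. Of 611 values for 36 named sites, 566 kept their side of the threshold and 45 lost it. None changed sign with an adjusted p under 0.05 in the main or the alternative fit. The Cog3 Ile-to-Val difference, never called, reached -0.228 points with 1 library left out. Many of these sites were named for their difference in the same libraries.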

Other observations

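A few sites, chosen after their values were seen, showed no called difference at a high level. The Ser-to-Gly site of Ppwd1, a spliceosomal cyclophilin, at chr13:105018767, had 10.2% ± 2.32 in STAT2-null and 9.66% ± 1.39 in p150 knockout cells (SD, n = 4 each), a difference of 0.525 points with a 95% interval from -3.80 to 4.85. It was at 9.94% and 12.0% in wild type, 9.21% and 8.58% in ADAR2-null and 8.56% in treated ADAR1-null cells; untreated ADAR1-null cells have no value, since 1 of their libraries had fewer than 50 reads there.

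Isolated high levels were seen in treated p150 knockout libraries, in 1 of them or in both. A 3′ UTR site of Cycs, the cytochrome c gene, was at 78.2% in the first treated p150 knockout library, at 0.795% in the second untreated one and at 0% in the other 6 libraries. An intronic site of Flna, an actin cross-linker, was at 62.9% and 20.3% in treated and 2.15% and 1.77% in untreated p150 knockout libraries, against 3.66% to 8.77% in STAT2-null ones (edgeR adjusted p = 0.603).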
